A study of Danio rerio with 36 samples.

Results

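Potassium channel genes were taken as all gene symbols in the deposited gene table that begin with kcn, continue with 1 or more letters and then hold a digit. This gave 101 of the 30490 genes listed. The RNA came from zebrafish, labelled embryos up to 2 day and larva from 5 day on, either wildtype or kctd15 mutant, at 1 somite, 25 hpf (hours post fertilization), 2 day, 5 day, 9 day and 14 day, with 3 biological replicates in each of the 12 groups and 36 libraries in all. The labels and protocols name neither the mutated paralog (kctd15a, kctd15b or both) nor the allele, the strain of the wildtype fish or the number of animals in a library. All groups share 1 growth protocol, and the labels name no agent. The labels name no dissected tissue or sorted cell type, so fewer cells of a type and less RNA per cell cannot be told apart in any value below.

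Potassium channels let potassium leave or enter cells along its gradient, which sets the resting potential, ends the action potential in nerve and heart, and recycles potassium across transporting epithelia. The voltage-gated pore subunits of the Kv1 to Kv4 families assemble as tetramers through a cytosolic domain that also gives the KCTD family its name, although KCTD proteins form no channel. In fish the skin ionocytes, which take up salt from the water, use channels of the inward rectifier class together with the sodium pump.

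By role the members were 23 inward rectifiers (kcnj), 18 two-pore leak channels (kcnk), 14 pore subunits of the Kv1 to Kv4 families (kcna, kcnb, kcnc, kcnd), 11 channels of the EAG, ERG and ELK families (kcnh), 10 silent or modifier subunits (kcnf, kcng, kcns, kcnv), 9 cytosolic partners (kcnab, kcnip), 9 calcium- or sodium-activated channels or their subunits (kcnma, kcnmb, kcnn, kcnt), 6 KCNQ channels and 1 KCNE subunit. By the tissue each family is best known for, 18 were listed as cardiac, 18 as epithelial, glial or pigment and 58 as neuronal, with 7 in no list. Levels below are counts-per-million (CPM) of estimated counts, scaled by trimmed-mean (TMM) factors of all 36 libraries and not divided by length, so they are compared between samples and not between genes. Library totals ran from 5510000 to 12500000 estimated counts, and at 25 hpf the mutant libraries (5510000 to 6670000) were shallower than the wild-type ones (7930000 to 10800000). RNA of kctd15a was higher in the mutants at all 6 stages, from 107 ± 8.48 against 162 ± 5.4 CPM at 1 somite to 14.6 ± 1.31 against 54.4 ± 6.68 CPM at 14 day (SD, n = 3). RNA of kctd15b overlapped between genotypes at 1 somite and was higher in the mutants, without overlap, at every later stage. At 2 day it had 9.39 ± 1.85 against 20.3 ± 3.15 CPM. These levels do not check the genotype labels.

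A filter on low counts let 93 of the 101 members into the test of at least 1 stage and 23 into the test of all 6. The 8 members never tested between genotypes were kcne4, kcnh5a, kcnip2, kcnk12, kcnk13a, kcnk13b, kcnk9 and kcns3b. Counted on group means, 5 members stayed under 1 CPM in all 12 groups and 24 reached 1 CPM at all 6 wild-type stages.

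In wild type the potassium channel genes appeared mainly between 1 somite and 5 day. The number with a mean of at least 1 CPM was 26 at 1 somite, 56 at 25 hpf, 77 at 2 day, 92 at 5 day, 85 at 9 day and 83 at 14 day. Of the 101 members, 70 had their highest wild-type mean at 5 day, 12 at 14 day, 8 at 2 day, 7 at 1 somite, 3 at 9 day and 1 at 25 hpf. These counts are given without the same counts over all genes, so they do not set the members apart. They include members far under 1 CPM, such as kcns3b (0.08 CPM at its peak). The summed level of all members was 434 ± 24.1 CPM at 1 somite, 315 ± 17.2 at 25 hpf, 468 ± 38.3 at 2 day, 830 ± 22.4 at 5 day, 471 ± 27.8 at 9 day and 504 ± 23.4 at 14 day (SD, n = 3). In the mutants the same sums were 411 ± 6.23, 294 ± 11, 506 ± 39.8, 890 ± 44.5, 487 ± 23.1 and 562 ± 64.8 CPM.

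**Figure D1:**
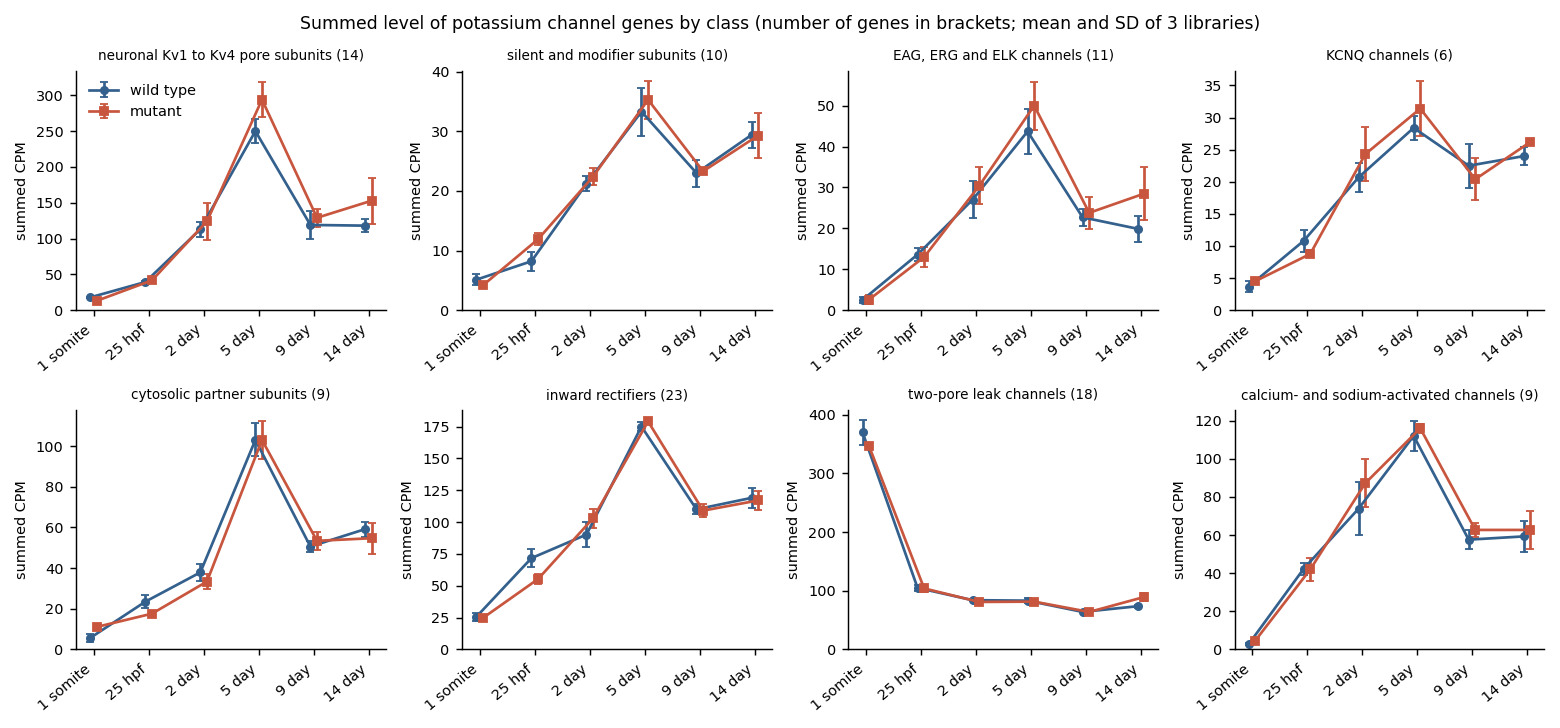
Summed CPM (y axis) of 8 classes of potassium channel genes by stage (x axis) in wild type and kctd15 mutants, with points at the mean and bars at the SD of 3 libraries; each panel has its own axis from 0. The 2-pore leak channels were highest at 1 somite (370 CPM in wild type), and the other 7 classes had their highest wild-type mean at 5 day.

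The 1 somite sum was carried by the two-pore leak channels, which hold the resting potential and open without a voltage step. They summed to 370 ± 21.6 CPM at 1 somite and to 105 ± 5.38 CPM at 25 hpf. One gene, kcnk6, held most of the counts in the 1 somite sum, a share of counts not divided by length. It had 276, 298 and 308 CPM in the 3 wild-type libraries at 1 somite, 53.8, 57.2 and 57.1 at 25 hpf, and 19.6, 19.0 and 20.8 at 9 day. Its groups did not overlap between 1 somite and any later stage. From 1 somite to 25 hpf kcnk6 fell by 2.35 ± 0.09 on the log2 scale (SE; edgeR quasi-likelihood test with Benjamini-Hochberg adjustment over all genes tested, adjusted p = 3.73e-12), kcnk1a fell from 25.6 ± 3.76 to 3.89 ± 0.83 CPM and kcnk12l from 7.25 ± 1.71 to 1.94 ± 0.39 CPM. Among the 7 members with their highest wild-type mean at 1 somite were kcnk5a, kcnk5b, kcnk10a and kcnj13. The last is the inward rectifier that shapes the adult stripe pattern of zebrafish. Neither kcnk10a (14.4 ± 2.59 to 14.1 ± 1.36 CPM) nor kcnj13 (9.48 ± 0.75 to 7.31 ± 1.73 CPM) passed from 1 somite to 25 hpf, and their groups overlapped.

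In the step from 1 somite to 25 hpf, 38 of 55 tested members rose and 7 fell, where 41.7% of all 19730 genes tested rose and 35.2% fell (76.9% called). The median log2 fold change of the members was 2.20, against 0.12 for all genes. All 4 tested calcium- or sodium-activated channels and all 6 tested cytosolic partners rose, and 5 of 10 tested two-pore leak channels fell. The filter admits a gene that is high in either group, so genes low at 1 somite entered through 25 hpf. Of the untested partners, kcnip3b went from 26 to 12 counts, kcnip2 from 11 to 6 and kcnip1a from 0 to 19. Of the untested activated channels, kcnn4 went from 12 to 11 counts, while kcnma1b, kcnn1b, kcnt1 and kcnt2 had more counts at 25 hpf. kcnma1a, the large-conductance calcium-activated channel of nerve, muscle and hair cells, rose by 5.56 ± 0.25 (adjusted p = 2.99e-11). The largest rises by the naming rule were those of kcnj1a.5 and kcnj1a.3, which had 0 counts in all 3 wild-type libraries at 1 somite and 197 and 142 counts at 25 hpf, so that they were at least 53-fold and 38.2-fold higher (bound from 3 counts over the group). kcnq5b, an M-current channel, went from 1 count to 115, a ratio of 92.9 with a 95% counting interval of 16.3 to 3700. Neuron markers moved with the members in this step, and 13 of the 14 tested rose. Their summed level went from 32.8 to 46.4 CPM over the libraries at 1 somite to 750 to 757 CPM at 25 hpf. Other marker sums rose as well, such as fast muscle (12.3 ± 2.19 to 11500 ± 503 CPM), pigment cell (6.58 ± 2.16 to 786 ± 59.2) and glia (14.3 ± 1.22 to 482 ± 20.1). Those of kidney, photoreceptor and smooth muscle had no higher mean at 25 hpf. The part of any marker in the members' rise was not tested.

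From 25 hpf to 2 day, 34 of 65 tested members rose and 7 fell (30.6% and 29.1% of all genes, 59.7% called), with a median of 0.88 against -0.01 for all genes. Of the members listed as neuronal 24 of 38 rose and 1 fell, and of those listed as epithelial, glial or pigment 2 of 14 rose and 6 fell. kcnc3a, a fast-repolarizing channel of rapidly firing neurons, had 10.9, 12.4 and 8.14 CPM at 25 hpf and 40.6, 33.4 and 47.5 CPM at 2 day, a rise of 2.03 ± 0.17. Among tested members with a mean of at least 1 CPM, kcnj12b, an inward rectifier of the heart and muscle family, rose most (from 0.30 ± 0.27 to 5.35 ± 1.21 CPM, 4.04 ± 0.46), followed by kcnc2 (3.18 ± 0.39) and kcnh8 (3.04 ± 0.52). The silent subunits kcnv2a and kcnv2b were too low to be tested and went from 1 count each to 37 and 25 counts, ratios of 46.5 (95% counting interval 7.84 to 1890) and 31.4 (5.14 to 1290). The largest falls among tested members with a mean of at least 1 CPM were those of kcnj1a.3 (1.67 ± 0.35), kcnk5a (1.36 ± 0.19) and kcnj1a.5 (1.35 ± 0.25 on the log2 scale, as decreases). Neuron markers moved the same way, with 13 of 14 risen. Summed fast muscle markers also rose (11500 ± 503 to 55300 ± 6000 CPM), and summed ionocyte markers went from 113 ± 6.43 to 91.2 ± 7.96 CPM. The part of any marker in the members' changes was not tested.

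From 2 day to 5 day, 55 of 88 tested members rose and 4 fell, against 30.8% and 30.2% of all genes (61% called), and the members' median was 1.05 against 0. Rises passed in each of the 8 classes tested, from 16 of 22 inward rectifiers and 11 of 14 Kv1 to Kv4 subunits to 4 of 11 two-pore leak channels. Sodium-activated kcnt1 rose from 1.59 ± 1.27 to 11.6 ± 0.81 CPM (2.84 ± 0.38), kcnh4b by 3.73 ± 0.46, and kcnj14 went from 1 count to 55. kcnj1b, the paralog of the kcnj1a genes, fell from 3.57 ± 0.17 to 1.83 ± 0.59 CPM. Leaving out wild-type 5 day replicate 2 ended that call (adjusted p up to 0.0785). The fall of kcnmb2 (adjusted p = 0.0378) did not hold without wild-type 2 day replicate 2 or 5 day replicate 1 or 3 (up to 0.146). The third large fall was that of kcnk10b (decrease of 1.34 ± 0.33). Here 7 of 14 neuron markers rose and 3 fell, all 10 photoreceptor markers rose and all 10 ionocyte markers rose. Their part in the members' rise was not tested.

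The step from 5 day to 9 day ran the other way. Of 91 tested members 49 fell and 4 rose, against 23.9% and 25.4% of all genes (49.3% called), with a median of -0.77 against 0. All 8 tested cytosolic partners fell, as did 10 of 14 Kv1 to Kv4 subunits and 12 of 23 inward rectifiers. kcnc3a had 79.4, 83.1 and 89.9 CPM at 5 day and 34.8, 46.0 and 35.9 CPM at 9 day, with no overlap (decrease of 1.08 ± 0.13). The largest falls among tested members with a mean of at least 1 CPM were kcnj1a.2 (from 7.43 ± 1.32 to 1.70 ± 0.49 CPM), kcnj1a.3 (5.77 ± 1.75 to 1.52 ± 0.33) and kcnj1a.5 (9.75 ± 3.29 to 2.62 ± 0.75). The 4 members that rose were kcnn4, kcnk5a, kcnj2a and kcnj11. Markers of neurons (12 of 14), photoreceptors (10 of 10) and ionocytes (7 of 10) also fell in this step, and the summed neuron markers went from 1940 to 2430 CPM over the 5 day libraries to 932 to 1190 at 9 day; their part in the members' fall was not tested. The rises of kcnn4, kcnk5a and kcnj2a did not hold with every library left out: kcnn4 was lost without wild-type 5 day replicate 1 or 3 or 9 day replicate 3 (adjusted p up to 0.0655), kcnj2a without 5 day replicate 2 or 3 or 9 day replicate 3 (up to 0.0721), and kcnk5a without any 1 library other than 9 day replicate 2 (up to 0.121). The rise of kcnj11 was at the threshold, with overlapping groups (0.537 ± 0.205, adjusted p = 0.0498). Its results with single libraries left out are not given here.

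Between 9 day and 14 day 2 of 88 tested members rose and 0 fell (9.32% and 7.46% of all genes, 16.8% called). kcna6a, a delayed-rectifier subunit of the nervous system that had 0 counts in every 1 somite and 25 hpf library, went from 3.46, 3.42 and 2.66 CPM to 6.63, 6.52 and 9.63 CPM (log2 fold change 1.26 ± 0.23, adjusted p = 0.00468). kcnj12b went from 11.7 ± 1.51 to 17.1 ± 1.62 CPM (adjusted p = 0.0323), a call that was kept among the single omissions only without 14 day replicate 1 (adjusted p 0.0238 to 0.12). At an unadjusted p under 0.05 there were 13 members.

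**Figure D2:**
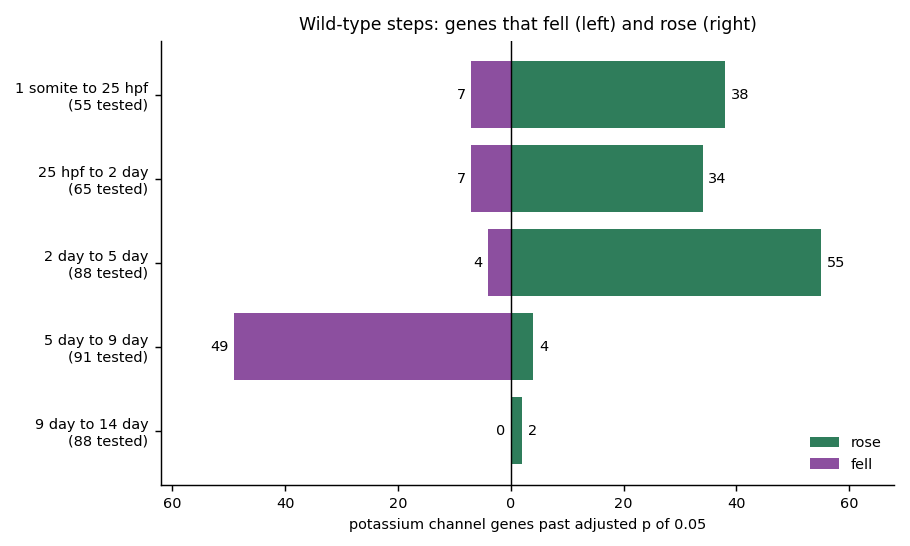
Number of potassium channel genes past an adjusted p of 0.05 (x axis; those that fell to the left of 0, those that rose to the right) in each of the 5 steps between consecutive wild-type stages (y axis, with the number tested). Rises led in the 3 steps up to 5 day (38, 34 and 55 genes), falls led from 5 to 9 day (49 genes), and 2 genes rose in the last step.

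The genotypes differed at fewer members. Over the 6 stages 26 differences passed, in 21 genes, and 5 of these genes passed at 2 stages. With 1 library left out at a time, 14 of the 26 kept an adjusted p under 0.05 in every omission. At each stage the mutants were compared with the same wild-type libraries that enter the steps above. Each genotype comparison sets 3 libraries against 3, where an exact permutation test of a single gene cannot go below p = 0.1, so calls rest on the spread pooled over genes by edgeR.

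At 1 somite 3 of 26 tested members rose and 2 fell, against 6.77% and 6.79% of all genes (13.6% called). At 25 hpf 3 of 53 rose and 4 fell (6.82% and 6.75% of all genes, 13.6% called), and at 2 day 2 of 73 rose and 0 fell (4.7% and 2.17%, 6.86% called). At 5 day 4 of 92 rose and 5 fell (6.17% and 7.84%, 14% called). At 9 day 0 of 88 passed with edgeR and 0 with DESeq2 (0.786% and 1.12% of all genes, 1.91% called), and 7 members had an unadjusted p under 0.05. At 14 day 2 of 87 rose and 1 fell (2.31% and 2.5%, 4.8% called). The shares of members called were 19.2%, 13.2%, 2.74%, 9.78%, 0% and 3.45% in stage order, which lie below those of all genes at every stage but 1 somite, where 5 of 26 members were called.

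Median log2 fold changes of the tested members were -0.03, -0.05, 0.25, 0.10, -0.02 and 0.05 in stage order, against -0.01 to 0.02 for all genes. Counted without a test, the 3 mutant and 3 wild-type libraries did not overlap for 11 of 26 members at 1 somite (31.7% of all genes), 12 of 53 at 25 hpf (30.3%), 16 of 73 at 2 day (31.7%), 19 of 92 at 5 day (33%), 14 of 88 at 9 day (21.8%) and 20 of 87 at 14 day (27.3%). Members whose genotypes separated were thus a minority at each stage, as were such genes among all genes. The share of members lay above that of all genes at 1 somite and below it at every later stage. At 5 day, scaling by library size alone moved the median of all genes by -0.17 and turned the members' split from 4 risen and 5 fallen to 2 and 6.

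**Figure D3:**
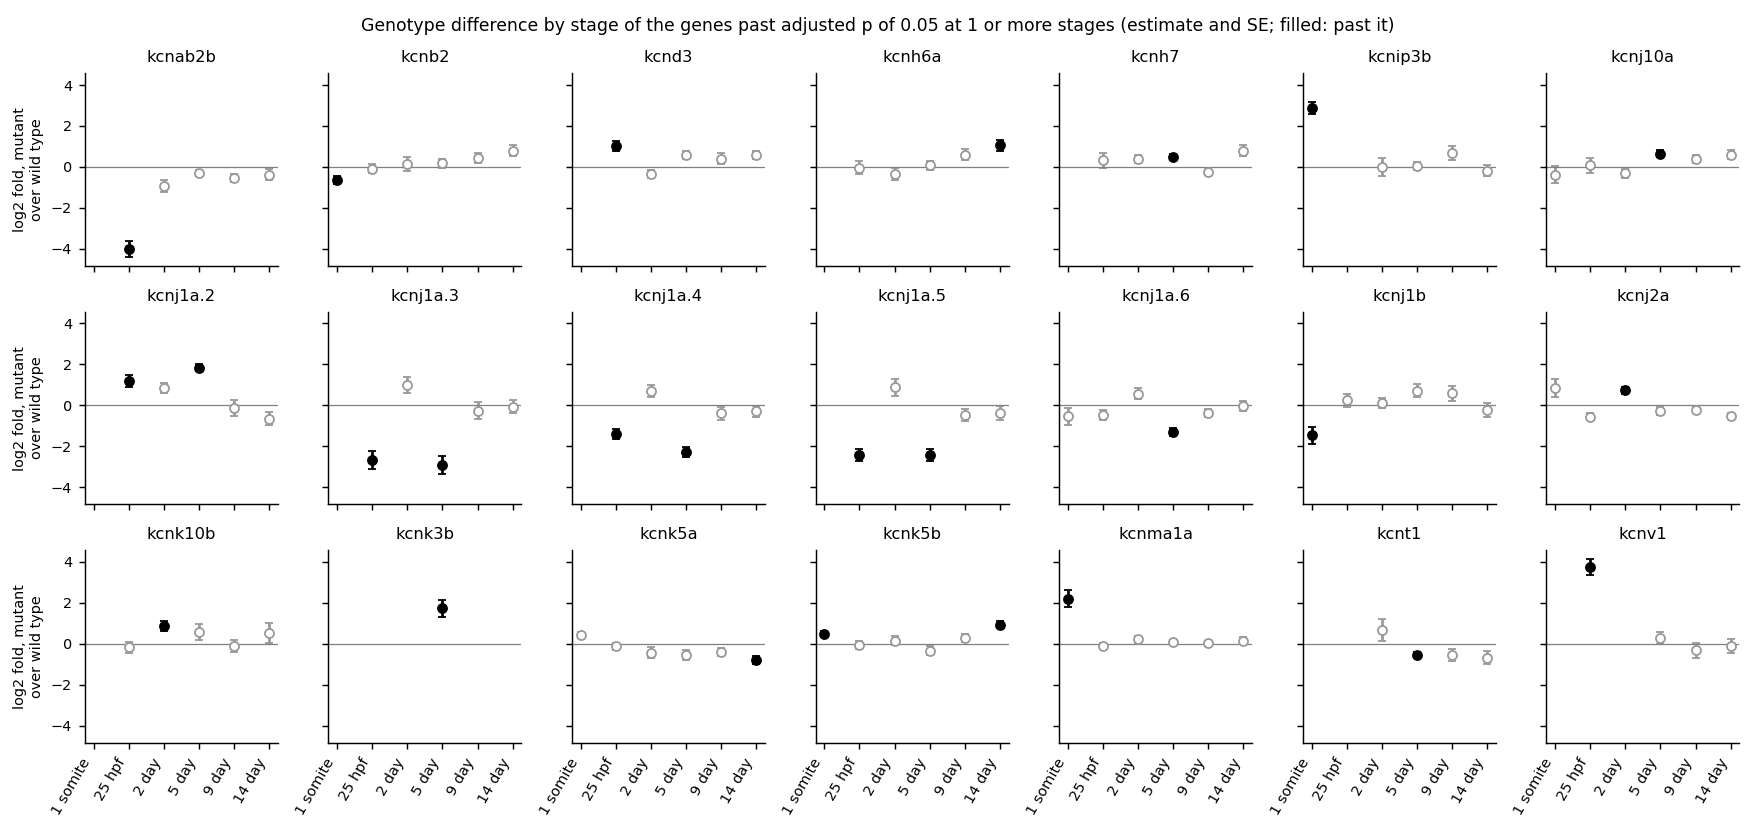
Log2 fold change of mutant over wild type (y axis, with SE) at the 6 stages (x axis) for the 21 potassium channel genes past an adjusted p of 0.05 at 1 or more stages. Filled points passed and open points did not; a missing point was not tested. kcnj1a.3, kcnj1a.4 and kcnj1a.5 lie below 0 at 25 hpf and 5 day and kcnj1a.2 above 0, while kcnab2b, kcnv1, kcnip3b and kcnma1a passed at a single stage.

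Inward rectifiers of the kcnj1a group showed the most calls, 9 of the 26. The group consists of kcnj1a.1 to kcnj1a.6, 6 genes that lie next to each other in the RefSeq annotation (assembly GRCz12tu), between fli1 and kcnj5. They are fish relatives of the mammalian renal outer medullary channel ROMK, which secretes potassium across kidney epithelium, and zebrafish kcnj1a is expressed in skin ionocytes. The copies are close paralogs and the authors' estimated counts divide shared reads between them, so the level of each copy is uncertain, and the sum is given below as well.

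kcnj1a.2 had 6.65, 8.95 and 6.68 CPM in wild type and 21.7, 27.9 and 31.6 CPM in the mutants at 5 day. All 3 mutant libraries were above all 3 wild-type libraries, and the rise was 1.85 ± 0.18 on the log2 scale (adjusted p = 0.000115). At 25 hpf it had 2.54, 1.24 and 2.20 CPM against 3.08, 5.06 and 4.96 CPM (1.19 ± 0.31, adjusted p = 0.0165), again with no overlap, but leaving out wild-type 2, mutant 2 or mutant 3 ended the call (adjusted p up to 0.0868). At 9 day the groups overlapped, with log2 fold change -0.12 ± 0.41, and at 14 day all 3 mutants were below all 3 wild types (-0.64 ± 0.31, adjusted p = 0.258).

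The neighbours kcnj1a.3, kcnj1a.4 and kcnj1a.5 moved in the opposite direction at the same stages. kcnj1a.3 had 3.63, 6.47 and 3.74 CPM against 1.09, 0.15 and 0.96 CPM at 25 hpf, and 4.99, 7.78 and 4.54 against 1.14, 0.13 and 0.97 CPM at 5 day. kcnj1a.4 had 6.90, 10.01 and 7.28 against 3.62, 1.99 and 3.52 CPM at 25 hpf, and 10.12, 13.2 and 10.15 against 2.00, 3.23 and 1.75 CPM at 5 day. kcnj1a.5 had 6.66, 7.09 and 5.94 against 0.72, 1.53 and 1.28 CPM at 25 hpf, and 10.5, 12.6 and 6.14 against 1.71, 1.42 and 2.24 CPM at 5 day. In all 6 of these comparisons every mutant library lay below every wild-type library. The decreases at 25 hpf were 2.67 ± 0.44, 1.41 ± 0.25 and 2.42 ± 0.29 on the log2 scale (adjusted p = 0.000519, 0.000937 and 1.86e-05), and those at 5 day were 2.93 ± 0.44, 2.29 ± 0.25 and 2.43 ± 0.31 (adjusted p = 0.00177, 0.000224 and 0.000625). None of these 6 calls was lost with any 1 library left out.

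At 5 day kcnj1a.6 also fell, from 9.43, 8.21 and 8.41 CPM to 2.99, 3.36 and 4.09 CPM (decrease of 1.30 ± 0.20, adjusted p = 0.00178). At 25 hpf it did not pass (-0.48 ± 0.24, adjusted p = 0.224). kcnj1a.1 did not pass at any stage, and its values at 5 day were 4.44, 7.35 and 4.94 CPM against 3.42, 4.78 and 6.82 CPM. At 2 day all of kcnj1a.1 to kcnj1a.6 had positive estimates (0.44 to 1.00 on the log2 scale), and none passed. The summed ionocyte markers, given below, were also higher in the mutants at 2 day.

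Within the group the share of counts held by kcnj1a.2 went from 14.4 to 16.3% over the wild-type libraries at 5 day to 65.8 to 68.4% over the mutants, and from 3.89 to 9.05% to 22.4 to 35.9% at 25 hpf. At 2, 9 and 14 day the ranges of the genotypes overlapped. The summed level of the 6 genes was 28.1, 31.9 and 25.4 CPM in wild type and 13.8, 14.1 and 17.4 CPM in mutants at 25 hpf. Tested as a single feature, chosen after their values were seen, it fell by 0.89 ± 0.13 on the log2 scale there (adjusted p = 0.000152). At 2 day it rose by 0.75 ± 0.20, near the threshold (adjusted p = 0.0477), and the groups overlapped (17.5, 15.4 and 23.2 against 38.4, 22.7 and 29.8 CPM). It did not pass at 5 day (46.2, 58.1 and 40.9 against 32.9, 40.8 and 47.4 CPM, -0.27 ± 0.16, adjusted p = 0.294). The sum was not tested with single libraries left out. With the 6 genes as 1 feature the number of members called was 4 in place of 7 at 25 hpf and 4 in place of 9 at 5 day.

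**Figure D4:**
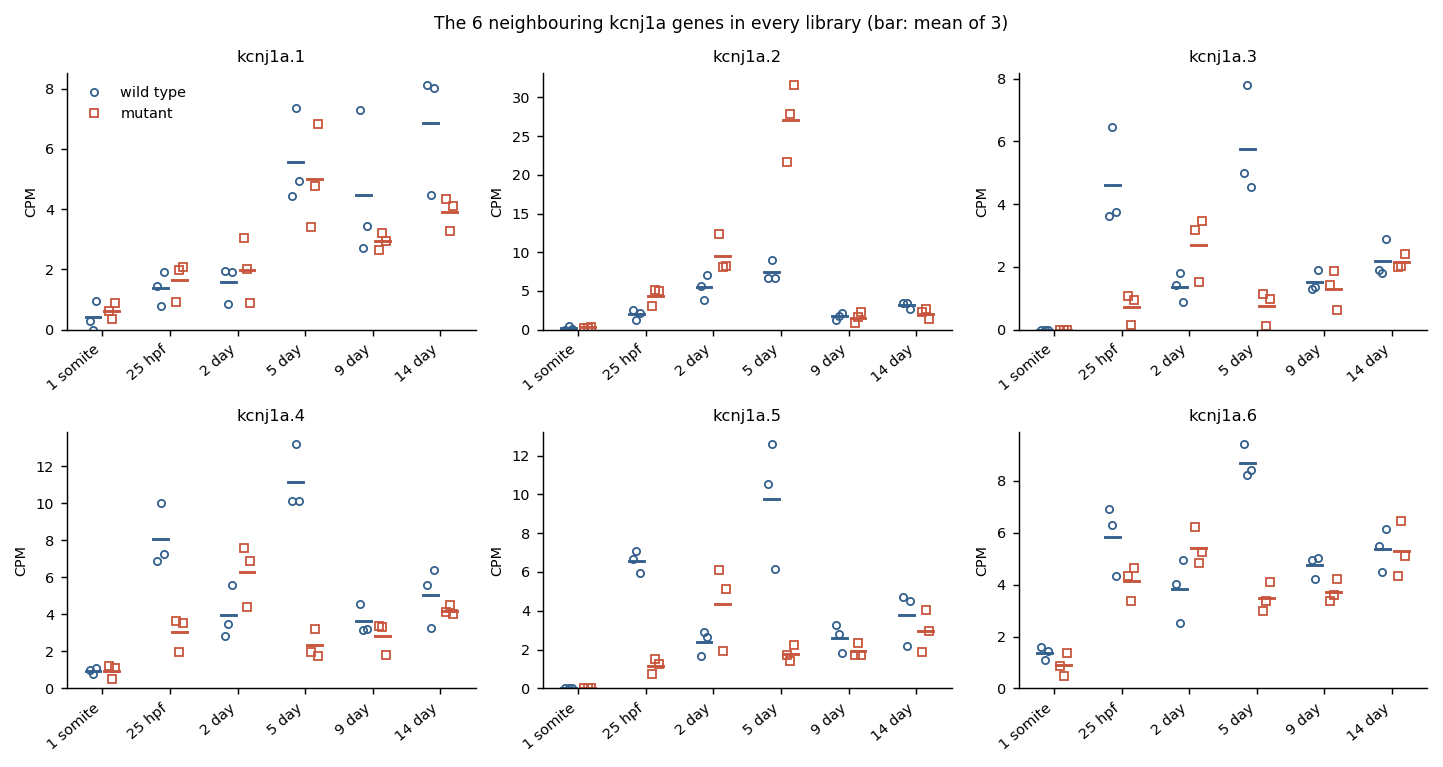
CPM (y axis, from 0) of kcnj1a.1 to kcnj1a.6 in each library by stage (x axis), with circles for wild type, squares for mutants and a bar at the mean of 3. At 25 hpf and 5 day the mutant squares of kcnj1a.3, kcnj1a.4 and kcnj1a.5 lie below the wild-type circles and those of kcnj1a.2 above them.

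The deposited transcript counts separated the genotypes more sharply for kcnj1a.5, which has a curated and a predicted RefSeq transcript model that hold 100% of its gene counts. At 5 day the predicted model had 10.5, 12.6 and 6.20 CPM in wild type and less than the value of 1 read in all 3 mutants, while the curated model was near 0 in wild type and had 1.65, 1.39 and 2.20 CPM in the mutants. At 25 hpf the same division held, with 6.69, 7.06 and 5.97 CPM of the predicted model in wild type and 0.73, 1.58 and 1.28 CPM of the curated model in mutants. At 2, 9 and 14 day each library had nearly all of its kcnj1a.5 counts on one model or the other, and both genotypes held libraries of both kinds. For kcnj1a.6 the curated model had 5.19, 3.22 and 3.2 CPM in wild type and 0.20, 0.57 and 0.66 CPM in mutants at 5 day, and the predicted model 4.17, 5.00 and 5.16 against 2.80, 2.76 and 3.38 CPM. These transcript values are described and were not tested. Whether the wild-type and mutant fish differ in sequence at these genes was not tested either, and such a difference would change which copy or model a read is assigned to.

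Ionocyte markers were measured beside these genes. At 25 hpf 3 of 7 tested ionocyte markers fell and none rose, and the summed level of the 10 was 108 to 120 CPM in wild type and 71.3 to 97.9 CPM in mutants. Among those that fell were foxi3b, the regulator of ionocyte fate (decrease of 0.89 ± 0.21, adjusted p = 0.00954), and atp1b1b, a sodium pump subunit (decrease of 0.51 ± 0.11, adjusted p = 0.00338). At 2 day 1 of 8 tested markers rose and none fell, and the summed level was 82.9 to 98.8 CPM in wild type and 120 to 156 CPM in mutants, with no overlap. The marker that rose was ca15a, a carbonic anhydrase (4.73 ± 1.14 to 19.9 ± 3.01 CPM, 2.15 ± 0.20, adjusted p = 0.000139). At 5 day 2 of 10 rose and 2 fell, and the summed level was 399 to 425 CPM against 420 to 525 CPM. The risen markers were trpv6, the epithelial calcium channel (63.8 ± 6.58 to 131 ± 26.8 CPM), and again ca15a (9.98 ± 2.06 to 23.7 ± 1.08 CPM). The fallen ones were slc12a10.2, a sodium chloride cotransporter (30.3 ± 2.79 to 15 ± 1.89 CPM), and rhcgb, an ammonia channel (58.5 ± 3.12 to 33.4 ± 3.72 CPM). Among the partner genes, the sodium pump subunits atp1a1a.5 and atp1a1a.4 fell at 5 day by 1.03 ± 0.18 and 0.44 ± 0.11 on the log2 scale. A further sodium pump subunit, atp1a1b, rose at 5 day by 0.48 ± 0.13 and at 25 hpf by 0.30 ± 0.08. Only rhcgb was at 0 counts in a group at these stages (wild type at 2 day). The part of these markers in the kcnj1a differences, those of the summed level at 25 hpf and 2 day included, was not tested.

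Other inward rectifiers gave 3 calls, each near the threshold. kcnj1b had 2.01, 1.56 and 2.54 CPM in wild type and 1.1, 0.49 and 0.59 CPM in mutants at 1 somite (decrease of 1.47 ± 0.41, adjusted p = 0.0358), with no overlap. Leaving out wild-type 1 or 3 or mutant 2 or 3 ended this call (adjusted p up to 0.138). kcnj2a, the strong inward rectifier of muscle and heart, had 6.36, 7.84 and 9.04 CPM against 13.56, 12.46 and 10.65 CPM at 2 day (0.73 ± 0.19, adjusted p = 0.0396), a call that held only without wild-type 3 among the 6 omissions (adjusted p up to 0.148). kcnj10a, the glial channel that buffers potassium, had 12.3, 11.6 and 18.4 CPM against 22.7, 23.6 and 20.4 CPM at 5 day (0.65 ± 0.17, adjusted p = 0.0301). Leaving out wild-type 1 or 2 or mutant 1 or 2 ended it (adjusted p up to 0.118). A further entry, kcnj10, was not found by symbol in RefSeq and was called at no stage. In wild type at 5 day kcnj10 had 1.80 ± 3.12 CPM, an SD above its mean. Whether reads were shared between kcnj10 and kcnj10a was not tested. The summed glia markers were 788 to 1130 CPM in wild type and 1100 to 1310 CPM in mutants at 5 day, with 2 of 9 risen, and their part in the rise of kcnj10a was not tested.

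Among the cytosolic partners, kcnab2b and kcnip3b showed the widest differences. kcnab2b encodes a beta subunit that binds the pore subunits of the Kv1 family. At 25 hpf it had 5.69, 10.4 and 8.72 CPM in wild type and 0.18, 0.61 and 0.64 CPM in mutants. Every mutant library lay far below the lowest wild type, and the fall was 4.03 ± 0.39 on the log2 scale (adjusted p = 1.66e-06). At 1 somite it was too low to be tested, with 47 counts over the wild-type libraries and 1 over the mutants, a wild-type to mutant ratio of 51.3 with a 95% counting interval of 8.77 to 2070. It did not pass at the later stages, with 3.50, 5.79 and 6.49 CPM against 2.66, 2.71 and 2.55 CPM at 2 day (-0.92 ± 0.29, adjusted p = 0.0761) and 13.4, 13.1 and 12.7 against 10.3, 12.8 and 9.35 CPM at 5 day (-0.29 ± 0.15, adjusted p = 0.237). At 9 day it had 9.53, 7.74 and 7.80 against 6.33, 4.95 and 6.13 CPM, with no overlap (-0.54 ± 0.18, adjusted p = 0.176), and at 14 day the groups overlapped (-0.38 ± 0.28, adjusted p = 0.466).

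The table lists a further gene, kcnab2, whose symbol was not found in the RefSeq table, so its relation to kcnab2b was not settled and reads may be shared between the entries. It had 2.30, 3.99 and 2.20 CPM in wild type and 4.16, 2.92 and 3.68 CPM in mutants at 25 hpf and passed at no single stage. The share of kcnab2 in the summed counts of both was 20.2 to 28.8% in wild type and 82.6 to 95.8% in mutants at 25 hpf, 30.4 to 50.9% against 63 to 72.2% at 2 day, and 21.5 to 29.5% against 41.5 to 42.9% at 9 day. At 14 day the ranges overlapped. Tested as a single feature, chosen after the values were seen, the sum of both fell by 1.45 ± 0.23 at 25 hpf (adjusted p = 0.00035). The sum did not pass from 2 day on (adjusted p 0.461 to 0.955). For kcnab2 alone the estimate at 25 hpf was positive (0.33 ± 0.30).

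kcnip3b, a calcium-binding partner of the Kv4 family that in mammals also acts on transcription, rose at 1 somite. It had 1.44, 1.00 and 0.85 CPM in wild type and 6.50, 7.10 and 10.18 CPM in mutants (2.88 ± 0.30, adjusted p = 0.000119), and the groups did not overlap. At 25 hpf it was too low to be tested, and from 2 day on it did not pass, with estimates from -0.19 to 0.67 on the log2 scale. The only transcript model matched to the gene holds 24.6% of its counts and had 1.44, 1.00 and 0.85 CPM in wild type at 1 somite and 0, 0 and 0.93 CPM in mutants, so the counts that rose lie on transcripts that were not matched.

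kcnv1, a silent subunit that modifies channels of the Kv2 family, rose at 25 hpf, from 0.12, 0.35 and 0.57 CPM to 4.89, 5.52 and 4.80 CPM (3.76 ± 0.39, adjusted p = 3.68e-06). Every mutant library was far above the highest wild type at this stage. At 5, 9 and 14 day the groups overlapped, with estimates from -0.31 to 0.31. A single transcript model held 99.8% of its counts. The other silent subunits were not called at any stage. At 25 hpf 4 of 14 neuron markers rose and 0 fell, with summed levels of 750 to 757 CPM in wild type and 741 to 877 CPM in mutants. Without overlap, mutants had higher sums for fast muscle (11000 to 11900 against 16900 to 17700 CPM), erythroid (606 to 868 against 2070 to 2670), pigment cell, glia and photoreceptor markers. The cardiomyocyte sum was lower (145 to 158 against 140 to 141 CPM), as was that of ionocytes. Kidney, hair cell and smooth muscle sums overlapped. The part of any marker in the differences of kcnv1, kcnab2b and the other members called at 25 hpf was not tested.

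**Figure D5:**
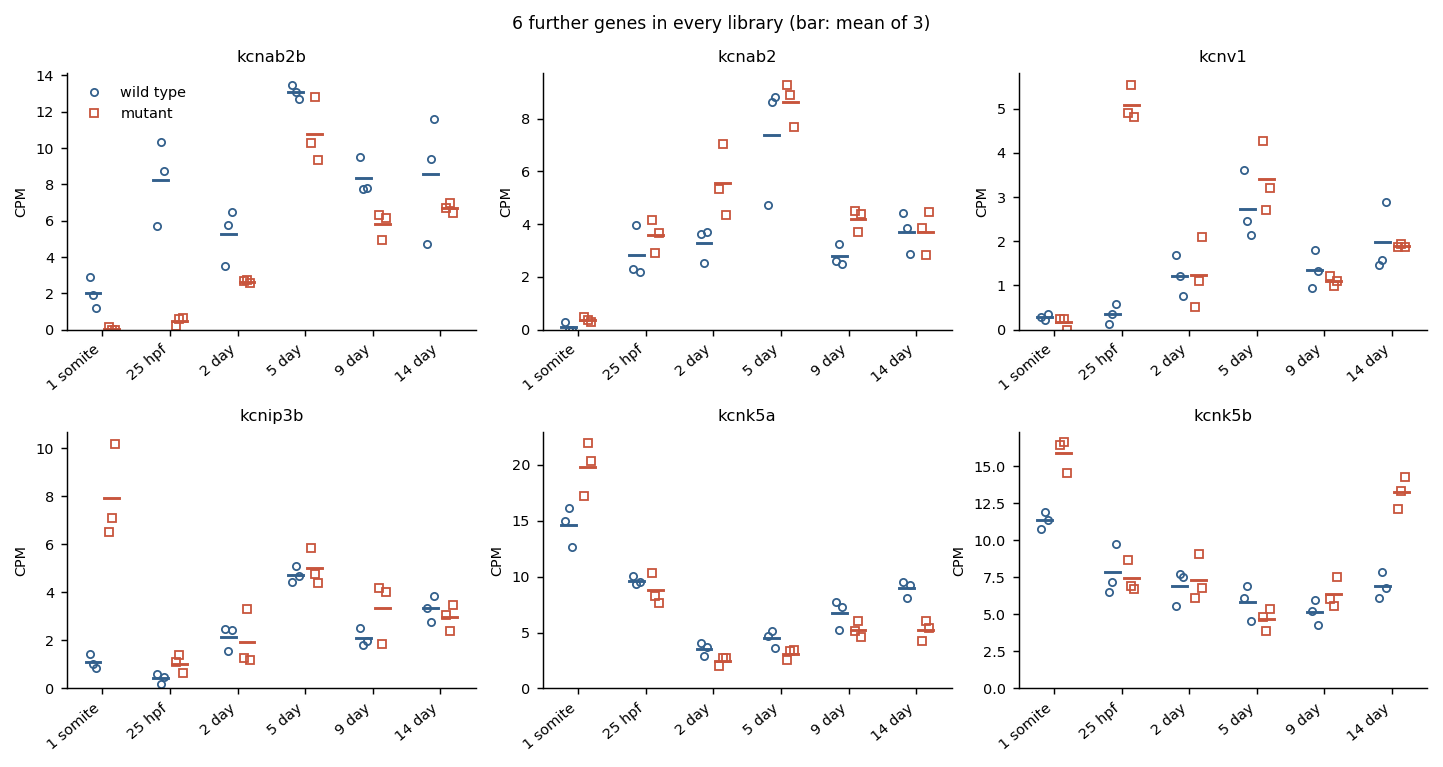
CPM (y axis, from 0) of kcnab2b, kcnab2, kcnv1, kcnip3b, kcnk5a and kcnk5b in each library by stage (x axis), with circles for wild type, squares for mutants and a bar at the mean of 3. Genotypes separate for kcnab2b and kcnv1 at 25 hpf, for kcnip3b at 1 somite, and in opposite directions for kcnk5a and kcnk5b at 14 day.

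Pore subunits of the Kv1 to Kv4 families gave 2 calls. kcnd3, a channel of the transient outward current of heart and brain, rose at 25 hpf from 1.82, 2.66 and 2.88 CPM to 4.89, 5.22 and 4.96 CPM (1.03 ± 0.25, adjusted p = 0.00993). Its groups did not overlap there or at 14 day, where it had 8.52, 8.81 and 10.5 against 10.8, 13.3 and 17.4 CPM without passing (0.56 ± 0.20, adjusted p = 0.128). At 2 day its estimate had the opposite sign (17.5, 15.9 and 12.9 against 8.11, 12.3 and 13.8 CPM, -0.37 ± 0.20, adjusted p = 0.266), and the 25 hpf call did not hold in 1 fit of all 36 libraries (adjusted p = 0.0819). kcnb2, a delayed rectifier, fell at 1 somite from 8.06, 8.46 and 9.30 CPM to 4.17, 5.63 and 6.52 CPM (decrease of 0.65 ± 0.20, adjusted p = 0.0484), and the call was lost in every omission other than that of mutant 3 (adjusted p up to 0.162). At 5 day all 14 tested members of these families had positive estimates, with a median of 0.18 against 0.01 for all genes, and none passed. Scaling by library size alone moved the median of all genes at this stage by -0.17, about the size of this shift. The summed neuron markers at 5 day were 1940 to 2430 CPM in wild type and 2230 to 2790 CPM in mutants, and their part in this shift was not tested.

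The two-pore leak channels kcnk5a and kcnk5b are paralogs, and overactive kcnk5b is known to give zebrafish overlong fins. kcnk5b had 10.8, 11.9 and 11.3 CPM in wild type and 16.4, 16.7 and 14.5 CPM in mutants at 1 somite (0.48 ± 0.14, adjusted p = 0.0393), a call lost in each of the 6 omissions (adjusted p 0.0598 to 0.141). At 14 day it had 6.10, 7.85 and 6.75 CPM against 12.09, 13.3 and 14.3 CPM (0.93 ± 0.17, adjusted p = 0.0116), and this call held in all 6. kcnk5a had 9.47, 8.09 and 9.27 CPM against 4.23, 5.997 and 5.36 CPM at 14 day (decrease of 0.79 ± 0.19, adjusted p = 0.0443), with no overlap, but was lost in each of the 6 omissions (adjusted p 0.0528 to 0.144). The share of kcnk5a in the sum of both was 50.8 to 60.8% in wild type and 25.9 to 31.1% in mutants at 14 day, and the sum itself was 15.8 ± 0.24 against 18.4 ± 1.84 CPM.

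Of the other two-pore channels, kcnk10b rose at 2 day (3.37, 3.38 and 4.07 to 6.08, 7.03 and 5.70 CPM, 0.88 ± 0.22, adjusted p = 0.0373). That call held only without wild-type 3 (adjusted p up to 0.137). kcnk3b, an acid-sensitive leak channel, rose at 5 day from 0.83, 1.17 and 0.40 CPM to 3.28, 2.07 and 3.02 CPM (1.73 ± 0.40, adjusted p = 0.0168), which was lost without wild-type 1 or mutant 1 or 3 (adjusted p up to 0.0712). It was too low for the test at the other 5 stages.

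In the calcium- and sodium-activated class kcnma1a rose at 1 somite, from 0.29, 0.45 and 0.36 CPM to 1.84, 1.84 and 1.58 CPM (2.20 ± 0.42, adjusted p = 0.00497). At the 5 later stages its estimates lay between -0.11 and 0.22 and none passed. kcnt1 fell at 5 day, from 10.7, 12.3 and 11.8 CPM to 8.69, 7.24 and 7.79 CPM (decrease of 0.56 ± 0.15, adjusted p = 0.031), with no overlap. The call held only without wild-type 3 (adjusted p up to 0.131).

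The kcnh family gave 2 calls. kcnh6a, the ERG channel that repolarizes the zebrafish ventricle, had 2.74, 2.90 and 2.43 CPM in wild type and 6.81, 3.97 and 6.25 CPM in mutants at 14 day (1.06 ± 0.27, adjusted p = 0.0487), a call that held only without mutant 2 (adjusted p up to 0.155). kcnh7, an ERG channel of the nervous system, had 9.70, 8.74 and 10.6 CPM against 14.8, 13.6 and 12.8 CPM at 5 day (0.50 ± 0.14, adjusted p = 0.0428), which held only without wild-type 3 (adjusted p up to 0.151). The cardiomyocyte markers summed to 154 to 195 CPM in wild type and 133 to 165 CPM in mutants at 14 day, with none of 7 past the test, while the pacemaker channel hcn4 rose from 0.52 ± 0.03 to 1.5 ± 0.18 CPM (log2 fold change 1.5 ± 0.37, adjusted p = 0.0468).

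By tissue list, the members listed as epithelial, glial or pigment had 4 of 14 called at 25 hpf (13.6% of all genes) and 6 of 18 at 5 day (14% of all genes), with kcnj1a genes making up all 4 and 5 of the 6. At the same stages those listed as neuronal had 2 of 27 and 2 of 51, and those listed as cardiac 1 of 9 and 1 of 16, below the shares of all genes. Among members with a known role in fish, kcnk5b passed at 2 stages and kcnh6a, kcnj10a, kcnma1a and kcnj1b at 1 each, as given above. Of the others, kcnj13 was tested at 6 stages, kcnh2b at 5, kcnh2a at 4 and kcnq1 at 1 (5 day), and none of these passed where it was tested. kcnj13 had a log2 fold change between -0.51 and 0.37 over the 6 stages and a wild-type mean that went from 9.48 ± 0.75 CPM at 1 somite to 4.51 ± 0.82 CPM at 14 day.

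Averaged over the 6 stages, 8 of 96 tested members rose and 7 fell (9.58% and 10.9% of all genes, 20.5% called). Members with 0 counts in both genotypes at a stage had no usable SE in this average and could not be called. Among them were kcnj1a.3 and kcnj1a.5, with 0 counts at 1 somite and SEs of 1519 and 2112, so their lack of a call is no sign of equal levels. kcnab2b fell by 1.91 ± 0.17 on the log2 scale (adjusted p = 3.26e-10) and kcnip3b rose by 0.78 ± 0.15. By single stages kcnab2b passed only at 25 hpf (decrease of 4.03 ± 0.39). kcnip3b (2.88 ± 0.30) and kcnma1a (2.20 ± 0.42), which also passed on average, did so only at 1 somite. The difference of each varied with stage, so their averages are not sizes found at every stage. Members that passed here without passing at a single stage were kcnip1b (decrease of 0.47 ± 0.09, adjusted p = 0.000434), kcnn3 (0.37 ± 0.09, adjusted p = 0.00184), kcnab2 (0.65 ± 0.18, adjusted p = 0.00793), kcnf1b, kcng1 and kcnj14. All of these were too low to be tested at 1 somite, a stage that enters the average. There kcnip1b had 25 counts in wild type and 7 in mutants, kcnn3 12 and 23, kcnab2 2 and 10, kcnf1b 10 and 0, kcng1 4 and 2, and kcnj14 0 and 2. For kcnn3, a small-conductance calcium-activated channel, the wild-type libraries at 9 day had 6.91, 8.01 and 8.18 CPM and the mutants 10.8, 10.4 and 10.9 CPM. The remaining ones were kcnj1a.2, kcnj1a.4, kcnj1a.6, kcnk5a, kcnk5b, kcnma1a and kcnh7. The call of kcnj1a.2 (0.60 ± 0.19, adjusted p = 0.0239) did not hold without wild-type or mutant 1 somite replicate 3 or mutant 9 day replicate 3 (adjusted p up to 0.0935). In the same fit the genotype difference varied with stage for 17 members (25.5% of all genes called).

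Among 54 partner genes found in the table of 72 listed (sodium and calcium channels, pacemaker channels, sodium pump subunits and accessory proteins), 1 of 17 tested passed at 1 somite (13.6% of all genes), 4 of 43 at 25 hpf (13.6%), 4 of 49 at 2 day (6.86%), 4 of 54 at 5 day (14%), 1 of 53 at 9 day (1.91%) and 1 of 54 at 14 day (4.8%). These counts lie near or below the shares of all genes. The presynaptic calcium channel gene cacna1ba fell at 1 somite from 15 ± 3.8 to 0.73 ± 0.13 CPM (decrease of 4.35 ± 0.31, adjusted p = 8.19e-06) and at 25 hpf from 20.1 ± 0.84 to 8.42 ± 2.03 CPM. The skeletal muscle calcium channel gene cacna1sb rose at 2, 5 and 9 day, by 0.62 ± 0.12, 0.68 ± 0.12 and 0.56 ± 0.12. Summed fast muscle markers were 49300 to 51700 CPM in wild type and 69400 to 72000 CPM in mutants at 5 day, and overlapped at 2 and 9 day, and their part in the rise of cacna1sb was not tested.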

How the data were processed

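The authors trimmed reads with Trimmomatic 0.36 and quantified them with kallisto 0.43.0, and edgeR and build GRCz10 are named too, per the submitters' processing notes. Libraries were stranded and made with an mRNA kit, per the labels' protocols. The deposited gene and transcript tables hold estimated counts (expected counts, not normalized), of which 84.1% in the gene table are not whole. They were rounded for every test. The deposited normalized table was not used.

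Members and lists were chosen with earlier results of these data known, and the tissue and marker lists support no finding by themselves. Groups and replicates follow the labels, and nothing in them says whether replicates came from separate clutches, so p-values measure the spread between these libraries. Replicates all differed beyond sampling noise (chi-square over its degrees of freedom 2.61 to 15.3). Genotypes were compared at each stage, and consecutive wild-type stages in 5 steps, with edgeR 4.0.16 in R 4.3.3 (filterByExpr, TMM factors, glmQLFit, glmQLFTest), with Benjamini-Hochberg adjustment over all genes tested and calls at 0.05. A joint model over all 36 libraries gave the averaged effect and the interaction with stage (5 degrees of freedom). The SE of each edgeR log2 fold change was worked back from its test, as the absolute fold change over the square root of the F statistic. CPM of estimated counts use TMM factors of all 36 libraries. Fold changes of genes with 0 counts in a group are bounds from 3 counts, and those with 1 to 3 counts carry a 95% interval; both cover counting error only. Scripts were tested on simulated data.

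All members called between genotypes were named. In the wild-type steps the 3 largest changes per direction with a mean of at least 1 CPM were named, and for the averaged effect and the interaction up to 10 by smallest p. The other members named in the wild-type steps, and the calls beyond 10, were chosen after their values were seen. Of the members, 95 had a symbol or synonym in the RefSeq gene table (GRCz12tu), used for names, neighbours and transcripts, and 78 had a matched transcript. Alternatives were DESeq2 1.42.0, DESeq2 size factors or library sizes alone in edgeR, no filter, a filter of 1 CPM in 3 libraries, a replicate block, 1 fit of all libraries and each library left out. Sequences were not used here. The values of 1 member are not reported here.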

Additional observations from a re-analysis of the deposited data

Results flagged for a closer look

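For 17 of 96 tested potassium channel genes, where 25.5% of all genes tested passed, the difference between mutant and wild type varied between the 6 stages, by the interaction of stage and genotype in edgeR (5 degrees of freedom, adjusted over all genes tested). The smallest adjusted p-values were those of kcnab2b (1.48e-06), kcnv1 (4.84e-05), kcnj1a.4 (5.91e-05), kcnip3b (8.31e-05), kcnj1a.5 (0.000244), kcnj1a.3 (0.000286) and kcnj1a.2 (0.000706), each of which passed at 1 somite, 25 hpf or 5 day and at neither 9 nor 14 day. Next were kcnk6 (0.00162), kcnj1a.6 (0.00356), kcnk5a (0.00377), kcnj2a (0.00404) and kcnk5b (0.00661). kcnk6 passed at no single stage, with 276 to 308 CPM in wild type and 262 to 266 CPM in mutants at 1 somite and 20.3 to 27.7 against 33.8 to 38.5 CPM at 14 day. The remaining ones were kcnj1b (0.0124), kcnma1a (0.0168), kcnf1b (0.0295), kcng4a (0.0304) and kcnn4 (0.0382). kcnf1b had 0 counts in all 3 mutant libraries at 1 somite and 0.29 to 0.48 CPM in wild type. kcng4a had 1.15 to 1.93 CPM in wild type and 0.61 to 0.98 CPM in mutants at 1 somite and 1.81 to 2.43 against 2.35 to 4.90 CPM at 9 day. kcnn4 had 2.88 to 3.89 CPM in wild type and 1.70 to 2.58 CPM in mutants at 14 day. The cause of these differences between stages was not tested.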

How the results depend on the processing

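No called fold change of a named member reversed under any alternative. Of the 26 genotype calls, 13 held under every alternative that kept the genes single. Summing the kcnj1a genes is left out of this count, since it replaces their single calls. Among the 13 are kcnj1a.3, kcnj1a.4 and kcnj1a.5 at 25 hpf and kcnj1a.2 to kcnj1a.6 at 5 day. Their sum passed in edgeR at 25 hpf and not at 5 day (adjusted p = 0.294). The members called at 1 somite numbered 5, and 2 with DESeq2, 8 with no filter and 2 with the replicate block. At 2 day they numbered 2, and 0 with DESeq2, with library size only and with the replicate block, and 5 in 1 fit of all 36 libraries. At 5 day the 9 became 5 with the replicate block and 4 with the kcnj1a genes summed, and at 25 hpf the 7 became 4 with those genes summed. At 14 day the 3 became 1 with the replicate block and 6 in 1 fit. From 9 to 14 day the 2 became 5 with library size only (1 higher, 4 lower), 1 with the replicate block and 5 in 1 fit. Thinning wild type at 25 hpf to the mutant depth, added after seeing the data, left 7.

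With single libraries left out, the members called ranged from 3 to 4 at 1 somite, 6 to 8 at 25 hpf, 0 to 5 at 2 day, 5 to 12 at 5 day, 0 to 0 at 9 day and 1 to 5 at 14 day. In the wild-type steps they ranged from 44 to 49, 40 to 46, 53 to 60, 41 to 48 and 1 to 5, for the averaged effect from 10 to 15 and for the interaction from 13 to 20.

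Replicate numbers did not pair the samples: correlations of same-numbered libraries' deviations ran from -0.211 to 0.077 between genotypes, so calls lost under the block are no sign of a smaller effect. Library size only moved the median of all genes by 0.3, 0.11, -0.13 and -0.22 in the wild-type steps that start at 1 somite, 2 day, 5 day and 9 day. Against 50.2% at 25 hpf, 49.9% at 1 somite and 44.1% at 5 day, the share of all calls that were higher was 36.1%, 60.4% and 13.7% with it. Low counts limit the members: 23 of 101 could be tested at all 6 stages.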
